A study of Mus musculus with 15 samples.

Results

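Oxidative phosphorylation (OXPHOS) subunits encoded in the nucleus were followed at the mRNA level in muscle stem cells and in whole quadriceps muscle of mice. The members were chosen by gene symbol: those of complex I subunits (Nduf with a, b, c, s or v and a number), Sdha to Sdhd, Uqcr, Cox4 to Cox8 and Atp5, leaving out symbols that mark pseudogenes. The rule found 91 genes among the 56953 of the deposited tables, 40 in complex I, 4 in complex II, 8 in complex III, 21 in complex IV and 18 in complex V. They carry 90 symbols, because 2 gene identifiers share the symbol Atp5o, and 14 pseudogene symbols were left out. Ndufa4 and Ndufa4l2 were counted with complex IV, where the Ndufa4 protein is now placed.

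The mice of the study, 10 in all, were wild type, of strain 129 and labelled as 10-week-old males. Muscle stem cells (MuSCs, also called satellite cells, from which muscle regenerates) were taken by biopsy and given back to the same animal, and the study asked how MuSCs outside the injected area and the hindlimb muscle differed afterwards. The groups were MuSCs after transplantation (mice 5, 6 and 11), MuSCs before it (the same mouse numbers), quadriceps of transplanted mice (4, 14, 94, 5, 6 and 11) and quadriceps of sham-operated mice (3, 192 and 12). A library is called by its group and mouse number, as in after 5 or sham 12. The labels enter the sham libraries under transplantation as treatment, and their titles set them apart. The sources used here do not state the time between surgery and sampling or how MuSCs were purified.

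In the 15 libraries, the total estimated count ran from 17.09 M to 22.98 M. Xist, which is expressed from the inactive X chromosome of females, stood at 0.01 TPM (a transcript level scaled for gene length and library total) in transplanted 4 and between 2.63 and 84.08 TPM in the other 14 libraries, and the summed level of 4 Y-linked genes was at most 0.31 TPM in any of them, which goes against the male label. MuSC libraries held 532 to 958 TPM of Myod1 and 11.8 to 21.6 TPM of Pax7, the defining genes of activated and of all satellite cells, and at most 1.5 TPM of 4 endothelial markers summed. They also held 282 to 3964 TPM of skeletal actin Acta1, a gene of differentiated muscle. MuSC libraries fall into 2 sets by the form of their name in the labels, which puts the number first in after 5, before 5 and before 11 and the letter first in after 6, after 11 and before 6. Muscle was deposited in 2 tables, 1 with transplanted 4, 14 and 94 and shams 3 and 192 (the 2-sham table) and 1 with transplanted 5, 6 and 11 and sham 12 (the 1-sham table).

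As background, complexes I to IV pass electrons from NADH and succinate to oxygen. Of these, all but complex II pump protons across the inner mitochondrial membrane, and complex V lets the protons flow back to make ATP. Most of their subunits are encoded in the nucleus and imported, and the remaining ones, the core of the proton pumps among them, are encoded in mitochondrial DNA. Several subunits of complex IV exist as a form found in heart and skeletal muscle and a form found in most tissues. Quiescent satellite cells hold few mitochondria, and muscle fibres hold many.

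Most members were abundant in both tissues. Of the 91, 78 had at least 10 TPM in all 15 libraries, and 3 (Ndufb11b, Cox6c2 and Cox8c) were at 0 in all of them. Members summed to 36402 TPM at the lowest, 42350 at the median and 55678 at the highest in the 9 muscle libraries, and to 23596, 37734 and 49025 TPM in the 6 MuSC libraries. The tissues therefore overlapped in the total. Each tissue is its own deposited table or tables, so tissue and table cannot be told apart and no test was made between them. In such bulk samples, fewer cells of a type and less RNA per cell cannot be told apart either.

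The division of this total among the complexes differed between the tissues more than between libraries of a tissue. Complex I, the NADH dehydrogenase, took 27.5% to 29.0% of the members' summed TPM in muscle, against 22.1% to 23.0% in MuSCs, with a mean of 28.4% ± 0.539 (SD, n = 9) against 22.5% ± 0.333 (n = 6). No muscle library overlapped a MuSC library. Complex V, the ATP synthase, took 32.8% to 34.0% in muscle and 35.3% to 37.4% in MuSCs, and complex IV, cytochrome c oxidase, took 23.0% to 24.8% and 25.2% to 27.4% in the same order, again with no overlap. Complex II, succinate dehydrogenase, took 2.5% to 3.0% in muscle and 2.0% to 2.6% in MuSCs, and complex III, the cytochrome bc1 complex, 11.3% to 11.8% and 11.4% to 13.1%, and here the tissues overlapped. Between treatment groups the share of complex I was 28.4% ± 0.48 in transplanted muscle (n = 6) and 28.3% ± 0.764 in sham muscle (n = 3), and 22.8% ± 0.208 in MuSCs after and 22.3% ± 0.265 before (n = 3 each). The largest gap between treatment groups was that of complex III in MuSCs, at 12.1% ± 0.624 after (11.4% to 12.6%) and 12.9% ± 0.265 before (12.6% to 13.1%), whose ranges meet at 12.6%.

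**Figure D1:**
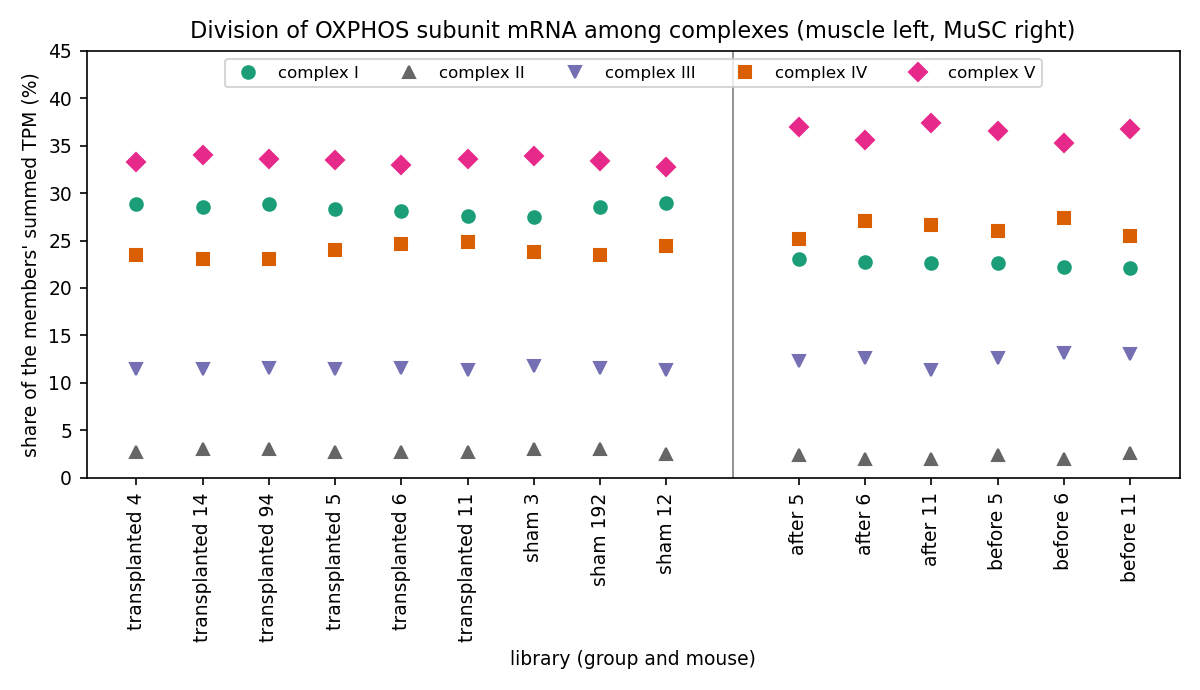
Share of the members' summed TPM that fell to each complex, in percent (vertical axis), in each of the 9 muscle and 6 MuSC libraries (horizontal axis, group and mouse). Each symbol is 1 library and complex. Complex I lies above complex IV in every muscle library and below it in every MuSC library.

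Muscle and MuSCs used opposite forms of complex IV subunits. Cox6a2, the heart and muscle form of a subunit that binds ATP and ADP, had 909 TPM at the lowest, 1043 at the median and 1295 at the highest in muscle, against 3.24 to 48.0 TPM in MuSCs. Its partner Cox6a1, the form of most tissues, had 22.5 to 70.5 TPM in muscle and 698 to 1575 TPM in MuSCs. Cox6a2 thus made up 96.3% ± 1.44 of the Cox6a mRNA in muscle (SD, n = 9) and 2.9% ± 2.0 in MuSCs (n = 6), reading both forms per length in TPM.

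Cox8b and Cox8a, the muscle form and the broad form of the smallest complex IV subunit, showed the same order. Cox8b had 1060 to 1645 TPM in muscle and 11.5 to 128 TPM in MuSCs, and Cox8a had 32.4 to 94.7 TPM in muscle and 742 to 1595 TPM in MuSCs. The share of Cox8b in their sum was 95.6% ± 1.24 in muscle and 4.43% ± 2.67 in MuSCs. Cox8b has the shortest effective length of the members, 114 bases as computed from the deposited values, and TPM of so short a gene rests on that length.

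In the third pair only the muscle form differed between the tissues. Cox7a1, the muscle form of a subunit at the dimer interface, had 526 to 1178 TPM in muscle and 7.01 to 32.5 TPM in MuSCs. Cox7a2, its broad partner, stood at 212 to 370 TPM in muscle and 202 to 427 TPM in MuSCs, which overlap. Cox7a1 therefore took 74.1% ± 1.98 of the pair in muscle and 5.28% ± 1.33 in MuSCs. For all 3 pairs the shares of the muscle libraries lay above those of the MuSC libraries.

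**Figure D2:**
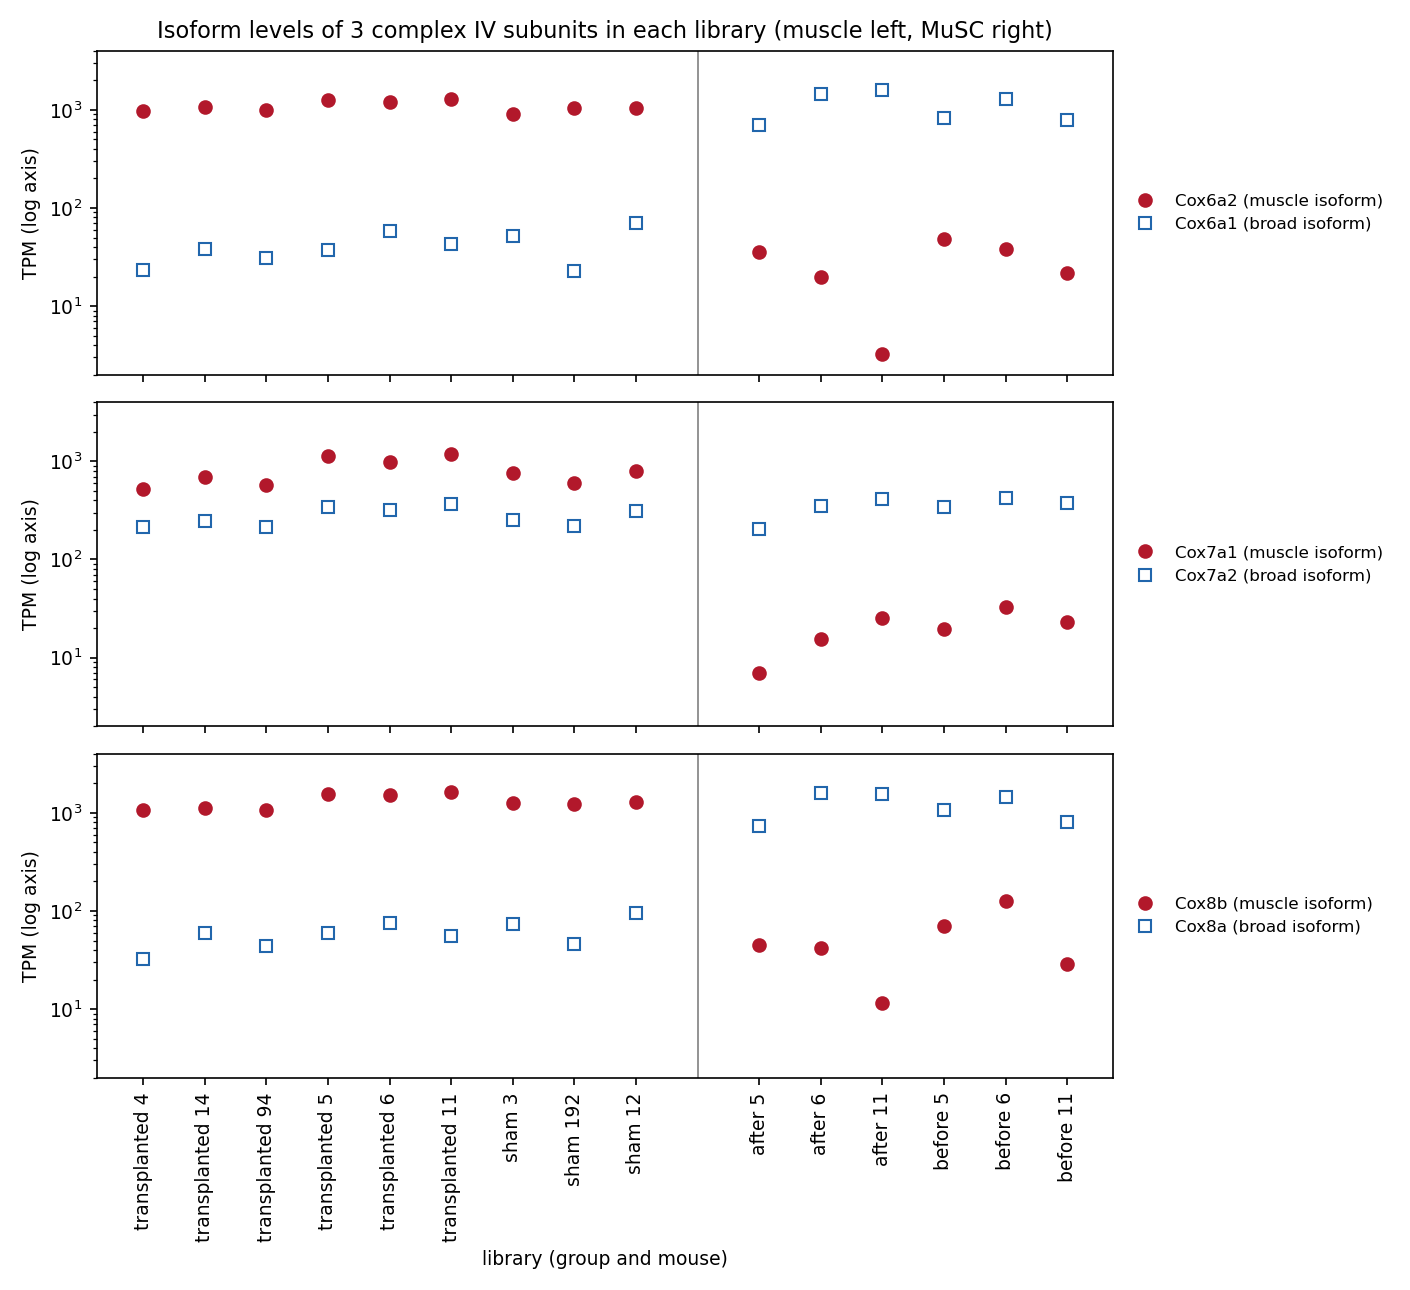
TPM on a log axis (vertical) of the muscle form (filled circles) and the broad form (open squares) of the Cox6a, Cox7a and Cox8 subunits in each library (horizontal axis, muscle left of the line, MuSCs right of it). Cox6a2 and Cox8b lie above their partners in all 9 muscle libraries and below them in all 6 MuSC libraries, while Cox7a2 is at a like level on both sides.

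The sequences before the gene starts are shown because the muscle and broad forms of Cox8 and Cox7a differ in how many CpG dinucleotides they carry there. The 250 bases upstream were taken from RefSeq for GRCm38.p6, at chr7:140900447-140900696 for Cox8b, chr19:7217617-7217866 for Cox8a, chr7:30183921-30184170 for Cox7a1, chr9:79759854-79760103 for Cox7a2 and chr5:115348959-115349208 for Cox6a1, all on the minus strand except Cox7a1. Cox6a2 is named only, because no promoter entry was available for it, so the forms of Cox6a are not compared. Each runs 5′ to 3′ to the base before the start, with CpG in capitals.
Cox8b: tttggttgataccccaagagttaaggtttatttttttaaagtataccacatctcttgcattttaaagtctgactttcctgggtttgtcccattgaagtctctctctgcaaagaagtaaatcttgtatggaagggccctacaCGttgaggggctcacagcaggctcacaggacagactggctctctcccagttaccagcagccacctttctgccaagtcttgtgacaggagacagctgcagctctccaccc
Cox8a: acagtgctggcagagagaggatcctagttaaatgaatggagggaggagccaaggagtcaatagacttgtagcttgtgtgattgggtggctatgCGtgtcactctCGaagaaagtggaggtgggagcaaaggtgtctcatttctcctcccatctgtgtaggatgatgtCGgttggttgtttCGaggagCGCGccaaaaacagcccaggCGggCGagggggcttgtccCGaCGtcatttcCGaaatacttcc
Cox7a1: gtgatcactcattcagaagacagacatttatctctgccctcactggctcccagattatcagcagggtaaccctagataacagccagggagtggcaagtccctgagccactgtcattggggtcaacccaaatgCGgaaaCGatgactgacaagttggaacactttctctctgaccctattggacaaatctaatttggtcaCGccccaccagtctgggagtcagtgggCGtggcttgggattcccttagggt
Cox7a2: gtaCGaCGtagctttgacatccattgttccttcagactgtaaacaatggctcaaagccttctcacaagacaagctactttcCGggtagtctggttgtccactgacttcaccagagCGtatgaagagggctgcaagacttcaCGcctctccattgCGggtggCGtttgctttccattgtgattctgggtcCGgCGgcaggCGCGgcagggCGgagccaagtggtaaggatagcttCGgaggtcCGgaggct
Cox6a1: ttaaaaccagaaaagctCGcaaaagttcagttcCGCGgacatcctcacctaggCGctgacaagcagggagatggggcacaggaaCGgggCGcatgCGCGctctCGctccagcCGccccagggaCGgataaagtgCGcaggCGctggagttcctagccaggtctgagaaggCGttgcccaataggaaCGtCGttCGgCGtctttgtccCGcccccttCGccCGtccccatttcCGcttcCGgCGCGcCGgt
The muscle forms Cox8b and Cox7a1 held 1 and 4 CpG in these 250 bases, and the broad forms Cox8a, Cox7a2 and Cox6a1 held 11, 14 and 26, beside a median of 6 over 32841 RefSeq promoters and of 14 over the 74 promoters matched to members. Promoters could be matched to 70 of the 91 members.

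Short motifs were searched on both strands of the same 250 bases. GCGCA and GCGC with 1 base of any kind between them, a form of the NRF1 site, was found for 13 of the 70 members (18.6%), among them Cox6a1, Sdha, Sdhd and Ndufs6, against 4.23% of the 27018 genes with a promoter. Cox6a1 held it at positions -162 and -117, where -1 is the last base before the start. CCGGAAG, the core bound by GABP and other ETS factors, was found for 12 members (17.1%), Cox6a1 again among them at -16, against 7.83% of genes. CAAGGTCA, bound by the estrogen-related receptors, was found for 3 members (4.29%) against 1.51%. CAGCTG, an E-box of the kind bound by MyoD family factors, was found for 6 members (8.57%) against 14.7% of genes, and Cox8b was 1 of the 6, at -19. CTA and TAG with NNNN (bases of any kind) between them was found for Cox5b alone (1.43%) against 3.7% of genes. This pattern is looser than the MEF2 site, which has A or T at those bases. TATAAA was found for 2 members (2.86%) against 8.93% of genes. The NRF1 and GABP patterns hold CpG, and promoters matched to members held a median of 14 CpG, beside 6 over all promoters. The part of base composition in these shares was not tested. A match in this window is a description of the letters and not of binding.

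Other isoforms of complex IV were at low levels. Cox6b2, known mainly from testis, had 0.21 to 1.4 TPM in muscle and 17.4 to 51.2 TPM in MuSCs, against 555 to 1217 and 607 to 1545 TPM of its broad partner Cox6b1. It made up 0.0978% ± 0.064 of the pair in muscle (SD, n = 9) and 2.57% ± 0.548 in MuSCs (n = 6). Cox4i2, a form known from lung and low oxygen, had 0.59 to 4.29 TPM in muscle and 0.14 to 1.88 TPM in MuSCs, while Cox4i1 had 894 to 1548 and 743 to 2799 TPM. Ndufa4l2, a hypoxia-induced relative of Ndufa4, had 3.1 to 9.03 TPM in muscle and 0 to 0.21 TPM in MuSCs. Its share of the pair stayed at 1.18% or less in all libraries, since Ndufa4 had 732 to 1198 TPM in muscle and 385 to 773 TPM in MuSCs. Cox7b, a subunit with a testis relative, had 235 to 345 TPM in muscle and 187 to 300 TPM in MuSCs, and the relative Cox7b2 reached 0.17 TPM in muscle and was at 0 in MuSCs. Cox7a2l, which takes part in joining complexes III and IV, had 105 to 147 TPM in muscle and 175 to 415 TPM in MuSCs. In TMM-scaled CPM (counts scaled to library size and by TMM factors, without regard to length) the tissues overlapped. There it had 91.8 to 154 CPM in muscle and 71.3 to 295 CPM in MuSCs.

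The c subunit that forms the rotor ring of complex V comes from 3 genes whose mature protein is the same. Atp5g1 had 625 to 1018 TPM in muscle and 399 to 875 TPM in MuSCs, and Atp5g3 had 637 to 1229 and 929 to 2204 TPM. Atp5g1 made up 46.4% ± 1.94 of these 2 in muscle and 27.6% ± 2.64 in MuSCs, with no overlap (42.5% the lowest in muscle, 30.9% the highest in MuSCs). Atp5g2 was low in both, with 4.63 to 12.4 TPM in muscle and 15.4 to 33.1 TPM in MuSCs.

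Across the members, the log2 ratio of muscle over MuSC mean TPM (0.1 TPM added to each) had a median of 0.47 over the 84 that passed a low-count filter, beside -0.75 over all 15693 genes that did. In 32 of the 84, all muscle libraries lay above all MuSC libraries, and in 6 all lay below, where the background was 17.0% of genes above and 37.4% below. Those below were Cox6a1, Cox8a, Cox6b2, Cox7a2l, Atp5d and Atp5g2. CPM, counts divided by library size without regard to length, scaled by TMM over all 15 libraries, moved the median of all genes by 0.75, to 0.00, and the members' median to 0.98, 0.98 above all genes, against 1.22 above all genes in TPM. On that scale 36 members lay above and 3 below (28.5% and 27.0% of all genes), the 3 being Cox6a1, Cox8a and Cox6b2, while Cox7a2l, Atp5d and Atp5g2 overlapped.

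In complex I, 17 of the 37 members that passed the filter lay above in muscle and none below, beside 17.0% and 37.4% of all genes. The median log2 ratio of the 37 was 0.63, beside -0.75 for all genes. In TMM-scaled CPM 20 lay above and 0 below, beside 28.5% and 27.0% of all genes. The highest were Ndufs4, an accessory subunit of the NADH-oxidising arm, with 144 to 237 TPM in muscle and 55.9 to 80.7 TPM in MuSCs (log2 ratio 1.52), and Ndufv2, a core iron-sulfur subunit of the same arm, with 336 to 477 and 112 to 154 TPM (1.51). Ndufb8, a membrane-arm subunit and the most abundant complex I member in muscle, had 610 to 1007 TPM there and 280 to 760 TPM in MuSCs, with overlap. Ndufa7, the most abundant in MuSCs, went the other way, with 224 to 347 TPM in muscle and 260 to 915 TPM in MuSCs (-0.87). Ndufb4 and Ndufb4c (51.4 to 82.2 and 577 to 751 TPM in muscle, 18.7 to 54.5 and 243 to 426 TPM in MuSCs) are copies that can share reads, so their separate levels are uncertain.

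In complex II, Sdha, the flavoprotein that oxidises succinate, had 280 to 354 TPM in muscle and 74.3 to 167 TPM in MuSCs, a log2 ratio of 1.56 and the largest of the members outside the complex IV isoforms. Sdhb, the iron-sulfur subunit and the most abundant of the 4, had 330 to 635 TPM in muscle and 159 to 465 TPM in MuSCs and overlapped. In complex III, Uqcrb, a small subunit near the quinone site, had 767 to 1037 TPM in muscle and 298 to 495 TPM in MuSCs. Uqcrfs1, the Rieske protein, and the core protein Uqcrc2 also lay above in muscle, at log2 ratios of 0.88 and 1.01. Uqcrh, the hinge protein, was the most abundant in muscle (752 to 1247 TPM, against 574 to 1042 in MuSCs) and Uqcr11 the most abundant in MuSCs (475 to 783 TPM in muscle and 466 to 1785 in MuSCs), and both overlapped.

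In complex V, 6 of 17 filtered members lay above in muscle and 2 below in TPM, beside 17.0% and 37.4% of all genes. In TMM-scaled CPM 6 lay above and 0 below, beside 28.5% and 27.0% of all genes. Atp5b, the catalytic beta subunit, was the most abundant member of all in both tissues, with 1516 to 2401 TPM in muscle and 1838 to 4181 TPM in MuSCs. Atp5e, the small epsilon subunit of the central stalk, had 1186 to 1925 TPM in muscle and 284 to 1054 TPM in MuSCs, and Atp5d, the delta subunit it binds, had 274 to 404 and 429 to 984 TPM. Their log2 ratios were 1.29 and -1.07 in TPM, and in TMM-scaled CPM Atp5d overlapped between the tissues (-0.46). Atp5pb, a peripheral stalk subunit, lay above in muscle at 1.09.

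**Figure D3:**
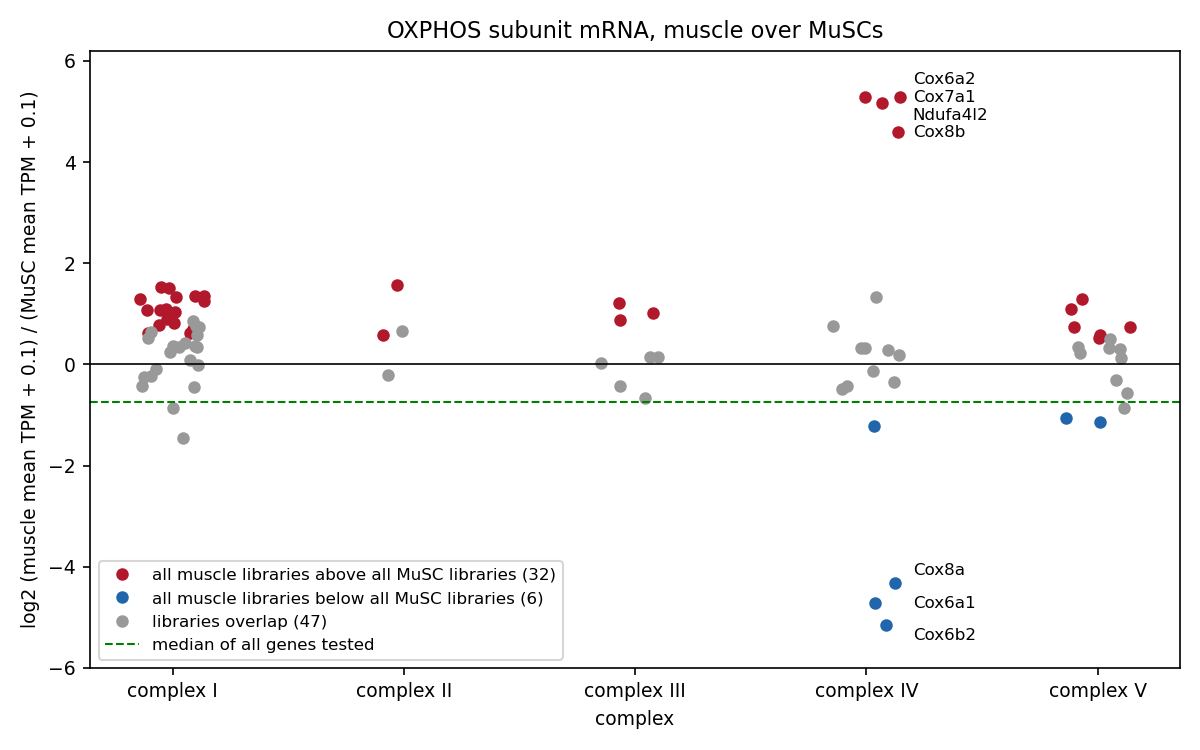
Log2 ratio of mean TPM in muscle over MuSCs, with 0.1 TPM added to each (vertical axis), for the 85 members that reached 1 TPM in a library, by complex (horizontal axis). Each point is a member, coloured by whether its muscle and MuSC libraries overlap, and the dashed line is the median of all genes tested (-0.75). The points of complexes I, II, III and V lie between -1.45 and 1.56, and only isoforms of complex IV lie past 4 in either direction.

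Genes around the complexes were counted by role. Of 17 genes of the citrate cycle and pyruvate dehydrogenase, 11 lay above in muscle and none below, beside 17.0% and 37.4% of all genes. Their median log2 ratio was 0.9, beside -0.75 for all genes. In TMM-scaled CPM 14 lay above and 0 below, beside 28.5% and 27.0% of all genes. Sucla2, a succinyl-CoA synthetase subunit, had 217 to 313 TPM in muscle and 13.6 to 105 TPM in MuSCs. Of 46 filtered assembly factors, 9 lay above and 6 below, with a median of -0.07, beside 17.0% above, 37.4% below and a median of -0.75 for all genes. In TMM-scaled CPM 19 assembly factors lay above and 2 below, beside 28.5% and 27.0% of all genes, with a median of 0.64 beside 0.00. Sco1 and Sco2, which deliver copper to complex IV, lay below, Sco2 at 1.62 to 2.96 TPM in muscle and 10.6 to 21.2 TPM in MuSCs, and Atpaf1, which assembles the ATP synthase head, lay above, at 32.1 to 44.1 and 6.46 to 16.0 TPM. The ADP/ATP carriers also stood in opposite order, with Slc25a4 at 1400 to 1683 TPM in muscle and 396 to 562 TPM in MuSCs and Slc25a5 at 20.5 to 38.9 and 650 to 867 TPM.

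Of 18 transcriptional regulators, 6 lay above in muscle and 5 below, beside 17.0% and 37.4% of all genes. Their median was -0.60, near that of all genes. In TMM-scaled CPM 8 lay above and 3 below, beside 28.5% and 27.0% of all genes. Perm1, a muscle partner of the PGC-1 coactivators, had 36.5 to 93.5 TPM in muscle and 0.25 to 0.89 TPM in MuSCs, and Ppargc1a, which encodes PGC-1 alpha, had 4.82 to 7.57 and 0.29 to 1.58 TPM. Nrf1 (3.47 to 6.56 TPM in muscle, 10.8 to 20.5 in MuSCs) and Gabpb1 (2.72 to 5.34 and 7.82 to 19.3) lay below in muscle on both scales, as did 37.4% of all genes in TPM and 27.0% in CPM. Of the 13 mRNAs of the mitochondrial genome, 9 lay above in muscle and none below, beside 17.0% and 37.4% of all genes. In TMM-scaled CPM 11 lay above and 0 below, beside 28.5% and 27.0% of all genes. The ratio of summed member TPM to summed TPM of these mRNAs was 0.15 to 0.28 in muscle and 0.15 to 1.09 in MuSCs, highest in after 11.

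In MuSCs after transplantation against before, no member passed the test. edgeR's quasi-likelihood test called 0 of 83 tested members at an adjusted p of 0.05, beside 0 of 13512 genes (0.0%), and at an unadjusted p under 0.05 it found 0 members beside 305 genes (2.26%). Members stood higher after transplantation by sign alone, 69 of 83 above 0 where the background was 51.4%, with a median log2 fold change of 0.31 beside 0.02 for all genes. By complex the medians were 0.35 (complex I, 34 of 37 above 0), 0.15 (II, 3 of 4), 0.06 (III, 5 of 8), 0.26 (IV, 12 of 17) and 0.38 (V, 15 of 17). The lowest adjusted p of a member was 0.873 in edgeR. DESeq2 called 16 genes and no member.

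The members' level followed the 2 sets of libraries. The mean centred log2 CPM of the 83 members was -0.90 in after 5, 0.50 in after 6 and 0.60 in after 11, and -0.37 in before 5, 0.51 in before 6 and -0.34 in before 11. All 3 letter-first libraries were high and all 3 number-first ones low, and the groups after and before overlapped. Other values separated the same sets: Xist was at 2.63 to 10.2 TPM in the letter-first and 44.5 to 84.1 TPM in the number-first libraries, with 2.63 TPM in after 11 and 84.1 TPM in before 11, which carry 1 mouse number. Fibroadipogenic markers summed to 35.6 to 47.2 TPM in letter-first and 51.3 to 105 TPM in number-first libraries. Their part in the members' level was not tested. The members' summed TPM followed the same line, at 23596, 43619 and 49025 in after 5, 6 and 11 and at 33137, 42331 and 32596 in before 5, 6 and 11.

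The length of the mRNA measured moved with it. Members are short, with a median effective length of 419 bases beside 2254 for all genes tested with a length, and the TPM-weighted mean length of the whole mRNA pool was 1264, 1022 and 1005 bases in after 5, 6 and 11 and 1247, 1005 and 1240 bases in before 5, 6 and 11. Across all genes, centred log2 CPM had a slope on log2 length of 0.274, -0.165 and -0.352 in after 5, 6 and 11 and 0.169, -0.134 and 0.208 in before 5, 6 and 11. With offsets that take out length, the members' median was 0.04, with 48 of 83 above 0, beside a median of 0.07 for all genes. Length was not tested further.

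Within the sets the direction differed. With the letter-first libraries alone (after 6 and 11 against before 6), 59 of 83 members were above 0 with a median of 0.13, and with the number-first libraries alone (after 5 against before 5 and 11), 1 of 82 was above 0 with a median of -0.54. In each, the lone library was assumed to vary like the others. With the name form as a term over all 6, 5 of 83 were above 0 and the median was -0.20. Leaving out 1 library gave a median of 0.65 without after 5, 0.15 without after 6, 0.03 without after 11, 0.15 without before 5, 0.66 without before 6 and 0.15 without before 11. No member passed the threshold in any of these fits.

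**Figure D4:**
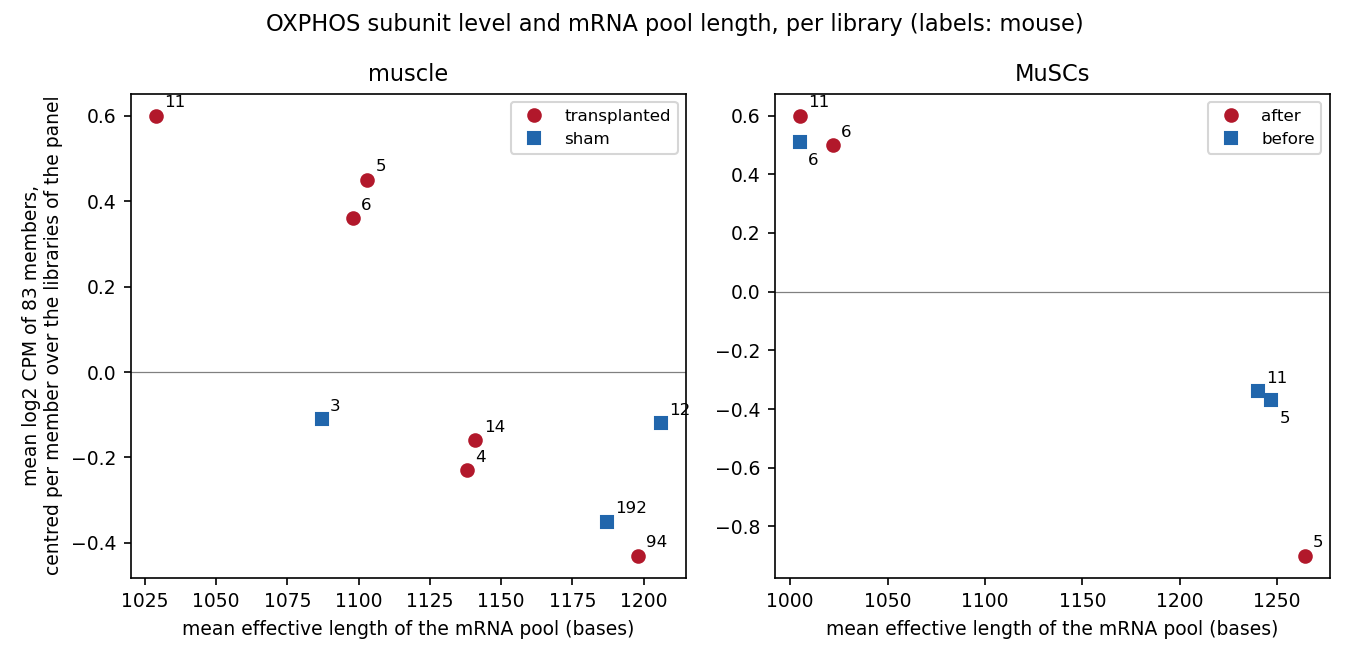
Mean centred log2 CPM of the 83 members (vertical axis) against the TPM-weighted mean length of the mRNA pool in bases (horizontal axis), 1 point a library, numbered by mouse, for muscle (left) and MuSCs (right). In MuSCs, the libraries near 1000 bases (after 6, after 11 and before 6) all lie above 0 and those near 1250 bases all lie below it.

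Among single members, Ndufa7, an accessory complex I subunit, stood highest. It had 51.2, 198 and 301 CPM in after 5, 6 and 11 and 76.0, 176 and 61.8 CPM in before 5, 6 and 11, a log2 fold change of 0.81 ± 0.67 (SE) with an adjusted p of 0.873 in edgeR. Its groups overlapped, and the 3 letter-first libraries held its 3 highest values. Uqcr11 (complex III, 0.74 ± 0.68), Cox4i1 (complex IV, 0.70 ± 0.67), Atp5g2 (complex V, 0.67 ± 0.53) and Sdhb (complex II, 0.63 ± 0.57) were the highest of their complexes.

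The lowest of complexes I, II, III and V were Ndufs1, the largest iron-sulfur subunit (-0.63 ± 0.35), Sdha (-0.35 ± 0.24), Uqcrc2 (-0.36 ± 0.27) and Atp5pb (-0.35 ± 0.27). Sdha had 219, 230 and 222 CPM in after 5, 6 and 11 and 279, 248 and 325 CPM in before 5, 6 and 11, with an adjusted p of 0.873. It was the only member whose groups did not overlap, all lower after, beside 2.98% of genes lower and 3.35% higher without overlap. Across the 83 members the fold change correlated with log2 length at r = -0.11, a description over genes that share the same 6 libraries.

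Cox8b and Cox6a2, muscle forms of complex IV, had the lowest fold changes of the tested members. Cox8b had 3.74, 5.59 and 1.69 CPM in after 5, 6 and 11 and 6.03, 17.1 and 2.72 CPM in before 5, 6 and 11, a log2 fold change of -1.23 ± 0.75 (adjusted p = 0.873 in edgeR), with overlap. Cox6a2 had 11.1, 9.58 and 1.64 CPM after and 15.2, 17.9 and 7.21 CPM before in the same mouse order (-0.85 ± 0.70), and Cox7a1 had 0.75, 2.61 and 4.73 CPM after and 2.21, 5.56 and 2.81 CPM before (-0.39 ± 0.72). The broad forms were at 0.59 ± 0.57 for Cox6a1, 0.46 ± 0.56 for Cox8a and 0.02 ± 0.48 for Cox7a2. For Cox8b and Cox6a2, after was lower than before in each of the 3 mice. The same held for members that are not muscle forms, among them Ndufs1, Sdha, Uqcrc2, Atp5pb, Atp5j and Cox7b. How many of all genes did so was not counted.

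Genes of differentiated fibres lay only in part along with these forms. Acta1 was lower after than before in each mouse, while Ckm was higher after in mouse 5. Acta1 had 3391, 1807 and 282 TPM in after 5, 6 and 11 and 3616, 3964 and 1802 TPM in before 5, 6 and 11, and creatine kinase Ckm had 65.3, 37.8 and 1.08 TPM after and 43.2, 50.7 and 13.2 TPM before. The summed level of 12 fibre markers was 963 to 7922 TPM after and 4097 to 12701 TPM before. After 11 was lowest in Acta1, Ckm, Cox6a2 and Cox8b, but not in Cox7a1, which was lowest in after 5. Myh4, a fibre myosin, had 0.05 to 2.32 TPM in MuSCs and 5925 to 12568 TPM in muscle. Myog and Mymk, genes of differentiating muscle cells, had 40.0 to 254 and 74.0 to 224 TPM in MuSCs. In muscle they had 4.87 to 10.2 and 0.06 to 0.49 TPM. By mouse, Myog was lower after than before in mice 5, 6 and 11. Mymk was lower after in mouse 5 (165 against 224 TPM) and higher in mice 6 and 11 (216 against 188 and 149 against 74.0 TPM). The part of fibre RNA or of differentiating cells in the levels of the muscle forms was not tested.

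As ratios of muscle form to broad form, which scaling between libraries does not touch, the differences between after and before were -1.66 for Cox6a, -1.37 for Cox8 and -0.51 for Cox7a on the log2 scale. Exact two-sided permutation tests over the 20 arrangements gave p = 0.3, 0.2 and 0.3 (0.375 each after adjustment over 5 pairs), and no arrangement of 3 against 3 can go below 0.1. The Cox4i2/Cox4i1 ratio differed by -0.49 (p = 0.5) and Ndufa4l2/Ndufa4 by 0.78 (p = 0.3) in the same exact permutation tests, the second with counts near 0. No ratio separated the groups.

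The lists around the subunits held no called gene in MuSCs, with adjusted p from 0.873 to 0.993. The background over all genes tested was 51.4% above 0, with a median of 0.02. Of the mitochondrial genome's 13 mRNAs, 3 were above 0, with a median of -0.49, from -1.09 for mt-Co2 to 0.26 for mt-Nd3. Assembly factors had 28 of 46 above 0 (median 0.11, from -0.84 for Tmem126b to 0.83 for Pet100), and citrate cycle genes 9 of 17 (median 0.05, from -0.68 for Sucla2 to 0.48 for Suclg1). Carriers ran from -0.09 for Slc25a4 to 0.42 for Ucp2, and regulators from -0.72 for Esrrb to 0.79 for Ppard, with 5 of 16 above 0. Mitochondrial counts were 1.2% of all counts in after 11 and 4.4% to 6.3% in the other MuSC libraries.

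In muscle of transplanted against sham mice, no member passed the test either. With the deposited table as a term, edgeR called 0 of 83 members, beside 0 of 14375 genes (0.0%), and 2 members were under an unadjusted p of 0.05, beside 1018 genes (7.08%). These were Ndufb7 (log2 fold change 0.28 ± 0.12) and Cox6a2 (0.30 ± 0.13), each with an adjusted p of 0.686. DESeq2 called 6 genes and no member, with 5 members under an unadjusted p of 0.05. Nearly all members were above 0, 81 of 83 where the background was 49.9%, at a median of 0.19 beside 0.00 for all genes. The exceptions were the broad forms Cox6a1 (-0.24 ± 0.24) and Cox8a (-0.31 ± 0.19). The medians were even across the complexes, 0.20, 0.18, 0.17, 0.16 and 0.21 for I to V.

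The excess above 0 stood in the 1-sham table. Within it alone, 81 of 83 members were above 0 with a median of 0.61, the lowest adjusted p of a member being 0.0773 in edgeR (0.0773 to 1.0 over the alternatives), and all of it rests on sham 12, the lone sham, taken to vary like the others. Within the 2-sham table alone, 20 of 83 were above 0 with a median of -0.06. Without sham 12 the median over both tables was -0.06 with 21 of 83 above 0, without sham 3 it was 0.32, and without any other single library 0.14 to 0.26 (0.20 without transplanted 4, the library with almost no Xist). No member had transplanted and sham libraries that did not overlap, beside 1.15% of genes higher and 0.96% lower.

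**Figure D5:**
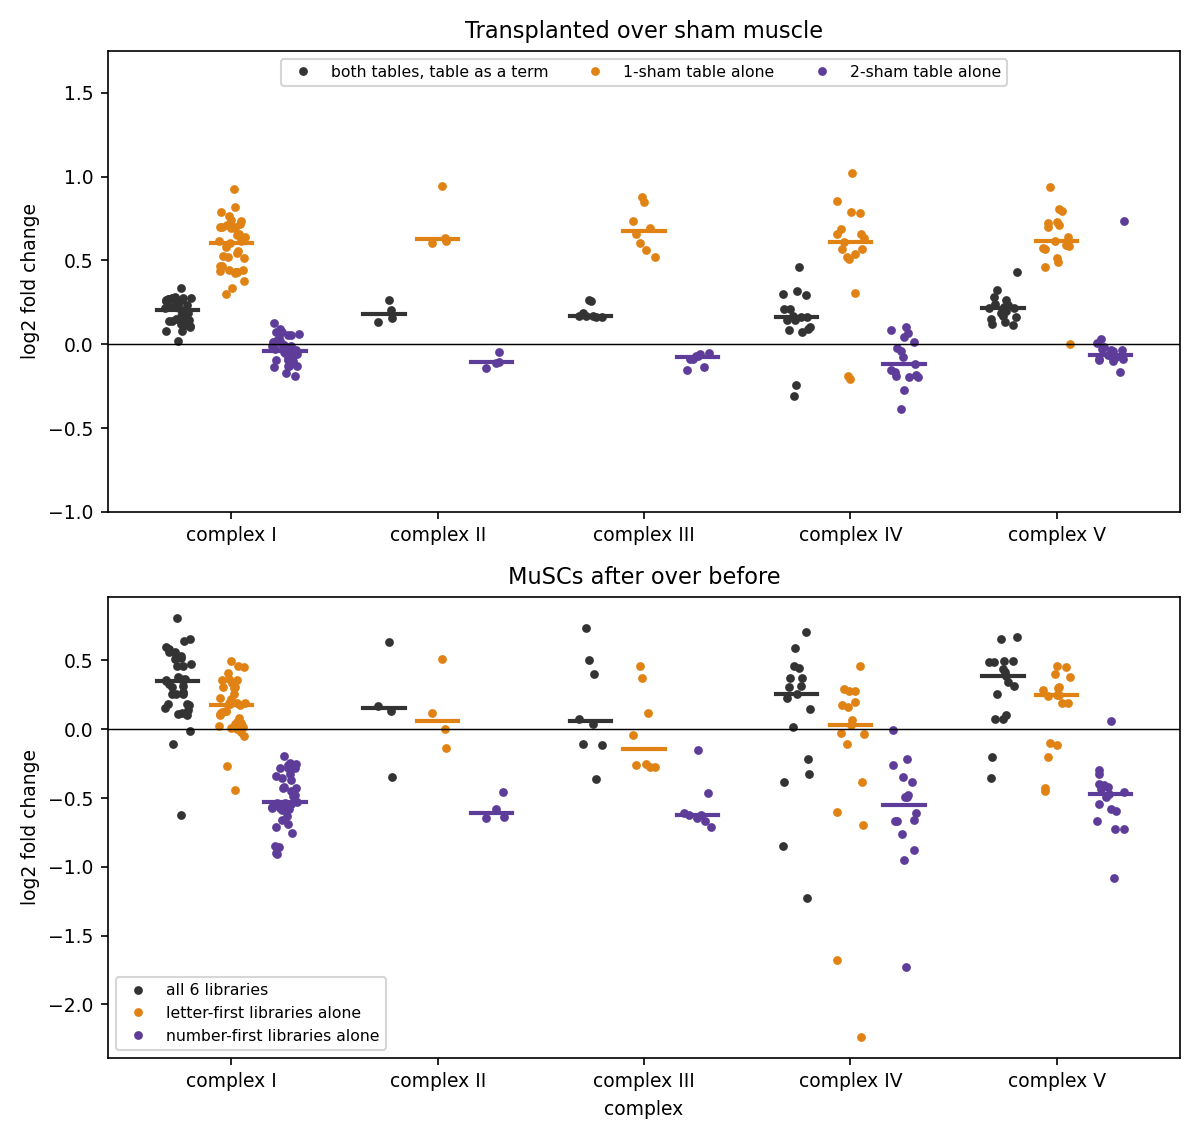
Log2 fold change of each tested member (points) by complex (horizontal axis), for transplanted over sham muscle (top) and MuSCs after over before (bottom), in the fit of all libraries and in each deposited table or set of libraries alone. Bars are medians. The 2-sham table lies around 0 and the 1-sham table near 0.6, and the number-first MuSC libraries lie below 0 for all but 1 member.

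Library means show the same split. The members' mean centred log2 CPM was -0.23, -0.16 and -0.43 in transplanted 4, 14 and 94 and -0.11 and -0.35 in shams 3 and 192 of the 2-sham table, and 0.45, 0.36 and 0.60 in transplanted 5, 6 and 11 and -0.12 in sham 12 of the 1-sham table. Transplanted 5, 6 and 11 were above the other 6 libraries. The mRNA pool averaged 1103, 1098 and 1029 bases in transplanted 5, 6 and 11 and 1206 bases in sham 12, and 1138, 1141 and 1198 bases in transplanted 4, 14 and 94 and 1087 and 1187 bases in shams 3 and 192. With offsets that take out length, the median was 0.14 with 79 of 83 above 0, beside a median of 0.04 for all genes.

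Sham 12 also stood apart in adipocyte and fibroadipogenic markers. Adipocyte markers summed to 172 to 492 TPM in transplanted 5, 6 and 11 and to 1062 TPM in sham 12, and fibroadipogenic markers to 103 to 137 TPM and 250.9 TPM. Slow-fibre markers summed to 1813 to 4591 TPM in the same 3 transplanted libraries and to 754 TPM in sham 12. In the 2-sham table they summed to 334 TPM in transplanted 4, below sham 12, and to 1802 to 2437 TPM in its other libraries. The part of these cells and fibres in the members' difference was not tested.

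Values by library show the range for single members. Cox6a2 had 313 CPM at the lowest, 416 at the median and 558 at the highest in transplanted muscle, and 312, 335 and 327 CPM in shams 3, 192 and 12. Only transplanted 94 lay within the range of the shams. Ndufb7, an accessory complex I subunit, had 56.7, 81.8 and 107 CPM as lowest, median and highest in transplanted muscle and 61.0, 55.2 and 66.1 CPM in the shams. Ndufs8, a core iron-sulfur subunit of complex I and its highest member (0.33 ± 0.16, adjusted p = 0.716 in edgeR), had 74.7, 104 and 164 CPM and 79.4, 74.8 and 81.0 CPM. In each, transplanted 5, 6 and 11 held the 3 highest values.

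The other ends of the complexes were close together. Ndufs5 was the lowest of complex I (0.02 ± 0.13), Sdhb and Sdhd the ends of complex II (0.26 ± 0.20 and 0.13 ± 0.15), and Uqcrc1 and Uqcrb those of complex III (0.27 ± 0.19 and 0.16 ± 0.15). In complex IV the highest was Cox4i2 (0.46 ± 0.55), at 0.33 to 1.89 CPM in transplanted muscle and 0.21 to 1.45 CPM in sham muscle. In complex V, Atp5g2 (0.43 ± 0.26) and Atp5l, a membrane-sector subunit (0.11 ± 0.16), were the ends. None of these had an adjusted p under 0.716 in edgeR.

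Of the isoforms in muscle, Cox7a1 was at 0.21 ± 0.19, Cox8b at 0.16 ± 0.15 and Cox7a2 at 0.17 ± 0.14. Cox8a had 8.05, 15.1 and 20.5 CPM as lowest, median and highest in transplanted muscle and 16.9, 9.97 and 20.5 CPM in shams 3, 192 and 12, and Cox6a1 had 6.19, 10.3 and 17.3 CPM and 12.9, 5.25 and 16.4 CPM. The ratio of muscle form to broad form differed between transplanted and sham muscle, within tables, by 0.49 for Cox6a, 0.47 for Cox8 and 0.05 for Cox7a on the log2 scale. By table these were 0.24, 0.22 and -0.13 in the 2-sham table and 0.88, 0.86 and 0.34 in the 1-sham table. Exact two-sided permutation tests over 40 arrangements within tables gave p = 0.25, 0.15 and 0.575 (0.625, 0.625 and 0.7 after adjustment over 5 pairs), where 0.025 is the smallest p possible. The Cox4i2/Cox4i1 ratio differed by 0.32 (p = 0.575) and Ndufa4l2/Ndufa4 by -0.19 (p = 0.7) in the same exact permutation tests.

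Around the subunits in muscle, all 13 mitochondrial mRNAs (median 0.24, from 0.02 for mt-Nd3 to 0.42 for mt-Co3) and all 17 citrate cycle genes (median 0.16, from 0.02 for Sucla2 to 0.28 for Mdh2) were above 0, and none passed the threshold. Over all genes tested, 49.9% were above 0, with a median of 0. Assembly factors had 38 of 46 above 0 (median 0.10, from -0.17 for Cox20 to 0.44 for Sco2), regulators 14 of 18 (median 0.09, from -0.19 for Gabpb1 to 0.74 for Esrrb) and carriers 8 of 10 (median 0.16, from -0.09 for Ucp2 to 0.28 for Ckmt2). In the 2-sham table alone, the direction turned for mt-Nd3, Sucla2, Mdh2, Esrrb, Ucp2 and Ckmt2. Mitochondrial counts were 9.3% of all counts in sham 12 and 12.2% to 16.0% in the other muscle libraries. The comparisons in MuSCs and in muscle share no library, but by their labels they share mice. Every mouse number of the MuSC comparison also has a transplanted muscle library. These muscle libraries are the ones with the highest member means, so the comparisons cannot be read as independent.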

How the data were processed

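RNA sequencing was deposited as 3 tables, per the file headers, with estimated counts, TPM and FPKM for the same genes. Estimated counts in the authors' tables were not all whole (7.99% of values were not) and were rounded here. TPM and FPKM were scaled for length and library total by the authors, per the file headers. GRCm38 and mm10 are the builds in the submitters' processing notes. The aligner and quantifier are not given there. Another 3 columns matched no sample's labels and were not used.

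Members, gene lists and tests were chosen with earlier results of these data known. Named genes are the isoform families, the most abundant member of each complex, the members with the highest and lowest fold change in each complex and comparison, and the ends of each list. A few more were chosen after their values were seen.

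Counts were tested with edgeR 4.0.16 (R 4.3.3): quasi-likelihood test, TMM, filterByExpr with a minimum count of 10, Benjamini-Hochberg adjustment over all genes, threshold 0.05, two-sided. DESeq2 1.42.0 was an alternative. MuSCs had no covariate, and muscle had the table as a term. Effective lengths came from the deposited estimated counts and FPKM. Isoform ratios took log2 of TPM plus 0.1. The code was tested on simulated data. The labels give MuSCs after and before the same mouse numbers (5, 6 and 11) in an autologous design, and deviations from group means correlated at 0.30, 0.36 and -0.40 for these mice. The libraries of mouse 11 differ in name form. Different mouse numbers of the same name form gave 0.55 (after 11 with before 6) and 0.49 (after 5 with before 11). The remaining pairs, different in both, gave -0.68 to -0.16. Different mouse numbers were taken as separate animals.

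Not tested for low counts were Ndufa11b, Ndufb11b, Ndufs6b, Cox6c2, Cox7b2, Cox8c, 1 of the 2 Atp5o identifiers and, in MuSCs, Ndufa4l2 or, in muscle, Cox6b2.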

Additional observations from a re-analysis of the deposited data

How the results depend on the processing

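No member passed the threshold in either comparison under any alternative, DESeq2 included, which called 16 genes in MuSCs and 6 in muscle, none a member. In MuSCs the members' median was 0.31 with DESeq2 and with RLE scaling, 0.30 with no filter, 0.20 with the mouse as a replicate block (66 of 83 above 0, 0 called), -0.20 with the name form as a term, -0.54 in the number-first libraries alone, and 0.03 to 0.66 with each library left out. The block changed no call. In muscle it was 0.35 with no table term, -0.06 in the 2-sham and 0.61 in the 1-sham table alone, and -0.06 to 0.32 with each library left out. The number of members whose tissues did not overlap, lower in muscle, was 3 in TMM-scaled CPM, where the median log2 ratio was 0.98. The fits on sets of libraries and on length were added after seeing the data.

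Directions turned as follows, all on the log2 scale and the causes not tested. In MuSCs with the name form as a term: Cox4i1 -0.08, Cox7a2 -0.49, Cox8a -0.12, Pet100 -0.22, Sdhb -0.04, Uqcr11 -0.08 and mt-Nd3 -0.68. In number-first libraries alone: Cox4i1 -0.61, Cox6a1 -0.26, Cox7a2 -0.87, Cox8a -0.39, Esrrb 0.0012, Ndufa7 -0.42, Pet100 -1.13, Sdhb -0.58, Suclg1 -0.43, Ucp2 -0.18, Uqcr11 -0.62 and mt-Nd3 -1.21. In letter-first libraries alone: Cox7a2 -0.11, mt-Co2 0.57 and mt-Nd3 -0.15. Cox7a2 was also -0.0001 with no filter, -0.10 with the replicate block and -0.30 with length offsets, and mt-Nd3 -0.01 with those offsets. In muscle, length offsets gave -0.05 for Ndufs5 and -0.07 for mt-Nd3, no table term gave -0.03 for Sucla2, the 1-sham table alone gave 0.03 for Cox20, and estimated counts gave 0.01 for the Ndufa4l2/Ndufa4 ratio. The 2-sham table alone gave Atp5l -0.16, Ckmt2 -0.28, Cox7a1 -0.15, Cox7a2 -0.04, Cox8b -0.12, Esrrb -0.05, Mdh2 -0.04, Ndufs5 -0.17, Sdhb -0.11, Sdhd -0.14, Sucla2 -0.12, Ucp2 0.06, Uqcrb -0.05, Uqcrc1 -0.07 and mt-Nd3 -0.41. Leaving out 1 library each gave, in MuSCs, Cox7a1 -1.06 to 0.11, Cox7a2 -0.31 to 0.36, Slc25a4 -0.23 to 0.07, Ucp2 -0.02 to 0.77 and mt-Nd3 -0.34 to 1.05. In muscle it gave Atp5l -0.16 to 0.30, Ckmt2 -0.27 to 0.67, Cox6a1 -0.49 to 0.10, Cox7a1 -0.15 to 0.44, Cox7a2 -0.04 to 0.31, Cox8b -0.11 to 0.26, Esrrb -0.04 to 1.30, Mdh2 -0.04 to 0.44, Ndufs5 -0.16 to 0.10, Sdhb -0.11 to 0.44, Sdhd -0.14 to 0.30, Sucla2 -0.11 to 0.11, Ucp2 -0.21 to 0.06, Uqcrb -0.05 to 0.30, Uqcrc1 -0.07 to 0.46 and mt-Nd3 -0.41 to 0.24, and for the ratios Cox4i2/Cox4i1 -0.27 to 0.88, Cox7a1/Cox7a2 -0.13 to 0.14 and Ndufa4l2/Ndufa4 -0.47 to 0.12. Cox4i2 and Ndufa4l2 rest on few counts.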
